A study of Mus musculus with 7 samples.

Results

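Transcript levels of 42 mouse genes that repair DNA or signal DNA damage were followed in CD8 T cells during tolerance, priming and proliferation in a lymphopenic host. The genes were listed by role: homologous recombination, the Fanconi anaemia pathway with post-replication repair, break sensing with the checkpoint kinases, end joining, base excision with single-strand break repair, mismatch repair, and p53 with the Gadd45 family. Each gene was represented by the probe set that carried its symbol alone and had the highest mean over the 7 arrays. Of the 42 genes, 40 had such a probe set, among 18194 genes named on the array. Trp53 (p53 itself) and Xrcc2 had none in the annotation used and were not analysed here. Of the 40, 38 reached log2 5 on at least 2 arrays and were tested among 8203 genes. The other two were Bard1 and Gadd45a.

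The cells were OT-I cells, CD8 T cells with a transgenic receptor for a peptide of ovalbumin, marked by Ly5.1 and on a C57BL/6 background. Naive OT-I cells with low CD44 were labelled with CFSE, a dye that is halved at each division, and given intravenously to 4 kinds of host. CD8+ Ly5.1+ cells were later sorted by their CFSE level, and RNA from pooled mice was hybridised to Affymetrix mouse arrays.

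The naive group held undivided cells from the spleens of B6 hosts, 10 mice a pool, on 2 arrays. The RIP-OVAhi group held divided cells undergoing deletional tolerance, from the sacral and pancreatic lymph nodes of hosts that carry ovalbumin under the rat insulin promoter, 20 mice a pool, on 2 arrays. The OCS/LPS group held divided cells undergoing priming, from the spleens of hosts given OVA-coated splenocytes with lipopolysaccharide, 10 mice a pool, on 2 arrays. The Rag group held divided cells undergoing lymphopenia-induced proliferation, from the spleens of Rag-/- hosts, which have no T or B cells of their own but keep other immune cells, 10 mice in 1 pool on 1 array. Divided cells had gone through at least 2 divisions. Cells were taken 60 h after transfer, or after 5 days in the Rag group. Lymph node origin therefore goes with RIP-OVAhi, and the later time goes with Rag, and neither can be told apart from the host in these comparisons.

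Double-strand breaks are mended either by homologous recombination, which copies the sister chromatid and is used during and after DNA replication, or by non-homologous end joining, which rejoins the ends at any stage of the cell cycle. The kinases Atm and Atr sense breaks and stalled forks, and Chek1 and Chek2 pass the signal on to the cell cycle machinery and to p53. In T cells end joining is best known for completing receptor gene rearrangement in the thymus, and the dividing cells of an immune response replicate their DNA at high speed.

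Promoter stretches of 8 of the genes are shown because these genes carry the main contrasts below: genes of recombination and checkpoint signalling that rose in RIP-OVAhi and OCS/LPS, an end-joining gene that did not pass the test, and the Gadd45 pair that differed between tolerance and priming. The sequences come from RefSeq promoters of GRCm38.p6 (250 bases before to 50 after the gene start), which held 34 of the 42 genes. Each stretch below is 70 bases long, lies before the start and is written on the gene's strand, with the matched motif or its reverse complement in capitals. In the first 3 the capitals are TTTCCCGC read on the opposite strand, a sequence of the kind that E2F factors bind. In the next 3 they are CCAAT or its reverse complement, the core of the NF-Y motif. In the last pair they are the E-box CACGTG.
Brca2, chr5:150522422-150522491, + strand: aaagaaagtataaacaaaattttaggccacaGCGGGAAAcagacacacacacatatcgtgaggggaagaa
Chek2, chr5:110839800-110839869, + strand: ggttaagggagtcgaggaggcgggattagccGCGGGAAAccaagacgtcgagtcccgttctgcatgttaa
Xrcc6, chr15:82016292-82016361, + strand: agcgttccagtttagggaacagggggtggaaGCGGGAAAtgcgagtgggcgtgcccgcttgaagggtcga
Brca1, chr11:101552005-101552074, − strand: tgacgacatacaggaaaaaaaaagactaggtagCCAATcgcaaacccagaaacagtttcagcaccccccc
Rad51ap1, chr6:126939588-126939657, − strand: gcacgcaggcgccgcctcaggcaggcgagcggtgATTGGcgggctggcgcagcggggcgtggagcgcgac
Parpbp, chr10:88146942-88147011, − strand: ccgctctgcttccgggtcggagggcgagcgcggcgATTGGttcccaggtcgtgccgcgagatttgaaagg
Gadd45b, chr10:80929874-80929943, + strand: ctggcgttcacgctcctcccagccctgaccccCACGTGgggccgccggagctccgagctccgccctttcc
Gadd45g, chr13:51846501-51846570, + strand: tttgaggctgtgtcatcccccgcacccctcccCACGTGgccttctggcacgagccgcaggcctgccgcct

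Both strands of the 300-base promoters were searched for 6 motifs, and the members were set beside all 32851 promoters of the table, which include those of non-coding genes. A member was counted once if any of its promoters matched, while the share of all is per promoter, so the units differ. TTTCCCGC was found in 5 of the 34 members (14.7%), Bard1, Brca2, Chek2, Msh6 and Xrcc6, and in 1.07% of all promoters. The related TTTGGCGC was found in 0 of 34 and in 0.514% of all. CCAAT was found in 21 (61.8%) and in 37.4% of all, CACGTG in 6 (17.6%) and in 7.15% of all, and the GC box GGGCGG in 22 (64.7%) and in 35.7% of all. TTTGAA, the core of the cell-cycle homology region, was found in 2 (5.88%), Bard1 and Parpbp, and in 17.9% of all. None of the 6 motifs contains another, and a match here describes the letters only. The TTTCCCGC match is shared by Brca2, Chek2 and Msh6, which rose in RIP-OVAhi and OCS/LPS, and by Xrcc6, which did not pass the test. Bard1, which also has it, was not tested.

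The sorted cells carried the markers of CD8 T cells on every array, and signals of other cells differed between groups. The summed level of the T cell list, 7 of 8 genes on the array, lay between 15.10 and 15.31 (log2) on all arrays, and both CD4 T cell genes stayed below log2 5. For MHC class II (5 of 5 genes on the array) the summed level was 7.70 and 7.72 in naive cells, with RIP-OVAhi at 5.73 and 5.92, OCS/LPS at 7.69 and 8.43 and Rag at 9.17. The B cell list (5 of 6) summed to 7.56 and 8.58 in naive cells, with RIP-OVAhi at 8.45 and 8.97, OCS/LPS at 9.29 and 9.69 and Rag at 7.28. Its genes Cd79a and Pax5 stayed below log2 5 on every array, Cd79b lay between 6.84 and 8.43, and Ms4a1 between 3.74 and 6.67. Cd22 read 4.04 and 3.59 in naive cells, with RIP-OVAhi at 6.53 and 7.03, OCS/LPS at 8.20 and 8.55 and Rag at 4.28. The plasma cell list (4 of 4) was at 4.75 and 4.88 in RIP-OVAhi and 4.81 in Rag against 8.23 to 9.12 elsewhere. The myeloid list (9 of 9) was at 6.56 and 6.34 in RIP-OVAhi, 8.35 to 9.11 in naive and OCS/LPS and 10.02 in Rag. The erythroid list (4 of 6) was at 6.84 in Rag and 4.15 to 5.36 elsewhere. The Rag sum came mostly from Alas2, at 6.65, while Hba-a1, Klf1 and Epor read 2.44, 2.02 and 2.26 there. The 3′ minus 5′ signal of the Gapdh control, a measure of RNA integrity, was 2.59 and 2.43 in naive cells, with RIP-OVAhi at 2.08 and 2.03, OCS/LPS at 1.85 and 1.89 and Rag at 2.21. The part of other cells and of RNA integrity in the results below was not tested, and in these bulk samples fewer cells of a type and less RNA per cell cannot be told apart. Replication and mitosis genes fixed as a cell cycle list rose with division: of 26 tested, RIP-OVAhi had 25 above naive (median log2 difference 3.79), OCS/LPS had 25 (4.33) and Rag had 11 (1.72). Over all genes 18.1%, 20.5% and 2.15% were higher. Some of the list were under log2 5 in naive cells, such as Ccnb2, Bub1 and Tk1 (naive means 4.04, 3.04 and 3.23). Part of these counts therefore follows from the requirement of log2 5 on 2 arrays, and the medians are not measured sizes.

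Repair genes were mostly higher in antigen-driven dividing cells than in naive cells, and most of the genes called belonged to recombination, the Fanconi pathway and checkpoint signalling. In RIP-OVAhi 18 of the 38 tested genes were higher than naive and 1 was lower (limma, adjusted p under 0.05 over all 8203 genes), with a median log2 difference of 0.57. Over all tested genes 29.6% were called in that comparison, 18.1% higher and 11.6% lower, with a median of 0.06. In OCS/LPS 21 were higher and 2 lower, with a median of 0.80. Over all genes 32.9% were called, 20.5% higher and 12.3% lower, with a median of 0.08. In Rag 2 were higher and 0 lower by the same limma test, with a median of 0.01, where 2.73% of all genes were called, 2.15% higher and 0.585% lower, and 12 of the 38 had an unadjusted p under 0.05. The 3 comparisons share the naive arrays.

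Part of these counts follows from the filter, since a gene near background in naive cells passes it only where it is high in other cells. Near background means under log2 5 here. Of the 38, 11 were below that level on a naive array: Brca1, Rad54l, Rad54b, Xrcc3, Parpbp, Exo1, Fanca, Fancd2, Fanci, Fancb and Chek1. For the 8 of them that were below it on both naive arrays, the size and the order of the rises from naive were not measured. With their naive means set to log2 5, the median differences of the 38 were 0.52 in RIP-OVAhi and 0.66 in OCS/LPS. Of the 27 that reached log2 5 on both naive arrays, 9 were higher and 1 lower in RIP-OVAhi, and 10 higher and 2 lower in OCS/LPS. Among the 7742 genes of the array that met the same condition, 15.4% were higher and 12.1% lower in RIP-OVAhi, and 18.0% higher and 13.0% lower in OCS/LPS. Without a threshold on p, both arrays lay above both naive arrays for 29 of the 38 in RIP-OVAhi (76.3%, against 37.0% of all genes) and for 29 in OCS/LPS (76.3%, against 39.4%). They lay below both for 4 in each (10.5%, against 29.0% and 28.6%). These shares include the 11 genes below log2 5 on a naive array, so part of them follows from the filter too. A fit without 1 naive array keeps a single naive array, assumed to vary like the other groups, and no longer counts the gap between the naive duplicates. In such fits the share of all genes called rose to 39.5% and 40.0% in RIP-OVAhi and to 41.2% and 44.4% in OCS/LPS, and calls gained there are to be read against that rise.

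**Figure D1:**
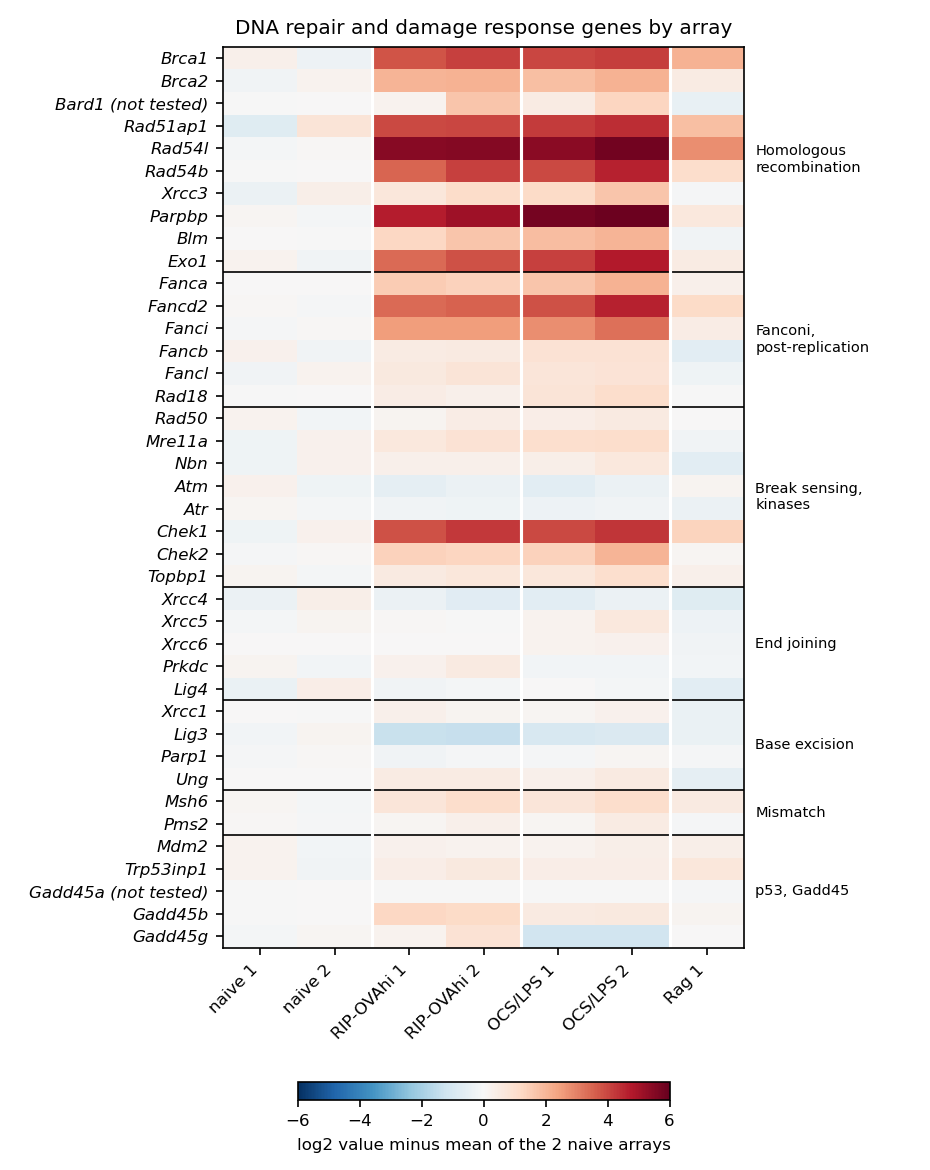
Each row is a gene and each column an array; colour gives the log2 value minus the mean of the 2 naive arrays, from blue (lower) to red (higher), with genes grouped by role. Rad54l, Parpbp and Chek1 are dark red on all 4 RIP-OVAhi and OCS/LPS arrays and paler on the Rag array, while the end-joining rows are pale, with no member called against naive in RIP-OVAhi or OCS/LPS.

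Homologous recombination genes rose in both antigen-driven groups. All 9 tested members but Xrcc3 were higher than naive in RIP-OVAhi, and all 9 were in OCS/LPS; the median log2 differences were 3.80 and 4.28, or 2.05 and 2.32 with naive means below log2 5 on both arrays set to 5. Brca1, Rad54l, Rad54b, Xrcc3, Parpbp and Exo1, 6 of the 9, were below log2 5 on a naive array, so part of this count follows from the filter. Over all genes 18.1% were higher in RIP-OVAhi and 20.5% in OCS/LPS. Rad54l encodes a motor protein that works on DNA during strand invasion. It read 2.32 and 2.51 on the naive arrays, with RIP-OVAhi at 7.89 and 7.91, OCS/LPS at 7.83 and 8.21 and Rag at 5.23. Every dividing group lay above naive, and the Rag array lay between. The log2 difference from naive was 5.49 ± 0.17 (SE, n = 2 and 2 arrays) in RIP-OVAhi (limma adjusted p = 2.76e-05), 5.60 ± 0.17 in OCS/LPS (adjusted p = 1.81e-05) and 2.82 ± 0.20 in Rag (adjusted p = 0.00255). Against a naive level of log2 5 the rise was at least 7.46-fold in RIP-OVAhi and at least 8.11-fold in OCS/LPS. The Rag array, at 5.23, lay close to that level, so the size of the Rag rise was not measured. In a limma fit of 16140 probe sets, its other tested sets gave 1.02 and 0.84 in Rag (adjusted p = 0.324 and 0.115). The Rag call of Rad54l thus depends on the probe set.

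Parpbp encodes a helicase-like protein that restrains recombination. It read 2.92 and 2.70 in naive cells, with RIP-OVAhi at 7.54 and 7.91, OCS/LPS at 8.53 and 8.69 and Rag at 3.43. The OCS/LPS arrays were the highest, the RIP-OVAhi arrays lay next, and the Rag array stayed near background. Its difference from naive was 4.91 ± 0.17 in RIP-OVAhi (adjusted p = 4.23e-05) and 5.79 ± 0.17 in OCS/LPS (adjusted p = 1.81e-05), while in Rag it was 0.61 ± 0.21 (adjusted p = 0.218). Against log2 5 the rises were at least 6.59-fold and at least 12.2-fold.

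Brca1 encodes a ubiquitin ligase that promotes end resection. It read 5.36 and 4.77 in naive cells, with RIP-OVAhi at 8.84 and 9.15, OCS/LPS at 9.06 and 9.23 and Rag at 7.16. RIP-OVAhi and OCS/LPS overlapped, and Rag lay between them and naive. The difference from naive was 3.93 ± 0.23 in RIP-OVAhi (adjusted p = 0.000179), 4.08 ± 0.23 in OCS/LPS (adjusted p = 0.000128) and 2.10 ± 0.28 in Rag (adjusted p = 0.0217). The Rag call was lost without any single RIP-OVAhi or OCS/LPS array, which enter only through the shared estimate of spread (adjusted p up to 0.0948). Bard1, the partner of Brca1 in that ligase, was not tested: it read 2.65 and 2.72 in naive cells, with RIP-OVAhi at 2.91 and 4.37, OCS/LPS at 3.20 and 3.97 and Rag at 2.24, all near background. Brca2, which acts at single-stranded DNA during recombination, read 5.47 and 5.87 in naive cells, with RIP-OVAhi at 7.70 and 7.75, OCS/LPS at 7.46 and 7.77 and Rag at 6.16. Its difference from naive was 2.05 ± 0.18 in RIP-OVAhi (adjusted p = 0.000915) and 1.94 ± 0.18 in OCS/LPS (adjusted p = 0.000964).

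Rad51ap1, which stimulates strand invasion, read 5.06 and 6.57 in naive cells, with RIP-OVAhi at 9.75 and 9.83, OCS/LPS at 10.00 and 10.22 and Rag at 7.61. Its naive arrays were 1.51 apart, the widest gap between duplicates of any tested member. The difference from naive was 3.98 ± 0.46 in RIP-OVAhi (adjusted p = 0.00239), 4.30 ± 0.46 in OCS/LPS (adjusted p = 0.00153) and 1.80 ± 0.56 in Rag (adjusted p = 0.181). The Rag difference was 1.04 without naive replicate 1 (adjusted p = 0.0243) and 2.55 without naive replicate 2 (adjusted p = 0.00812), fits that set 1 Rag array against 1 naive array and leave out this gap. Other Rad51ap1 probe sets gave 1.83 and 0.09 in Rag in the limma fit of 16140 probe sets (adjusted p = 0.0147 and 0.913). Rad54b, a relative of Rad54l, read 2.22 and 2.30 in naive cells, with RIP-OVAhi at 5.76 and 6.37, OCS/LPS at 6.20 and 6.87 and Rag at 3.32. It was higher than naive by 3.80 ± 0.29 in RIP-OVAhi (adjusted p = 0.000458) and by 4.28 ± 0.29 in OCS/LPS (adjusted p = 0.000256).

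Exo1, the exonuclease that resects broken ends, read 3.08 and 2.67 in naive cells, with RIP-OVAhi at 6.27 and 6.69, OCS/LPS at 6.98 and 7.66 and Rag at 3.37. It was higher than naive by 3.61 ± 0.28 in RIP-OVAhi (adjusted p = 0.000525) and by 4.44 ± 0.28 in OCS/LPS (adjusted p = 0.000208). Blm, the helicase that dissolves joined duplexes, was already well above background in naive cells, at 6.51 and 6.49, with RIP-OVAhi at 7.72 and 8.17, OCS/LPS at 8.36 and 8.53 and Rag at 6.28. The rise was 1.44 ± 0.18 in RIP-OVAhi (adjusted p = 0.00291) and 1.94 ± 0.18 in OCS/LPS (adjusted p = 0.000806). Xrcc3, another recombination gene, read 3.65 and 4.34 in naive cells, with RIP-OVAhi at 4.68 and 5.11, OCS/LPS at 5.13 and 5.65 and Rag at 3.93. It rose in OCS/LPS, by 1.40 ± 0.30 (adjusted p = 0.0173), a call lost without either OCS/LPS array (adjusted p up to 0.12). In RIP-OVAhi its difference of 0.91 ± 0.30 missed the threshold (adjusted p = 0.0705) and passed with the replicate block (adjusted p = 0.0088) and without naive replicate 2 (adjusted p = 0.0318).

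**Figure D2:**
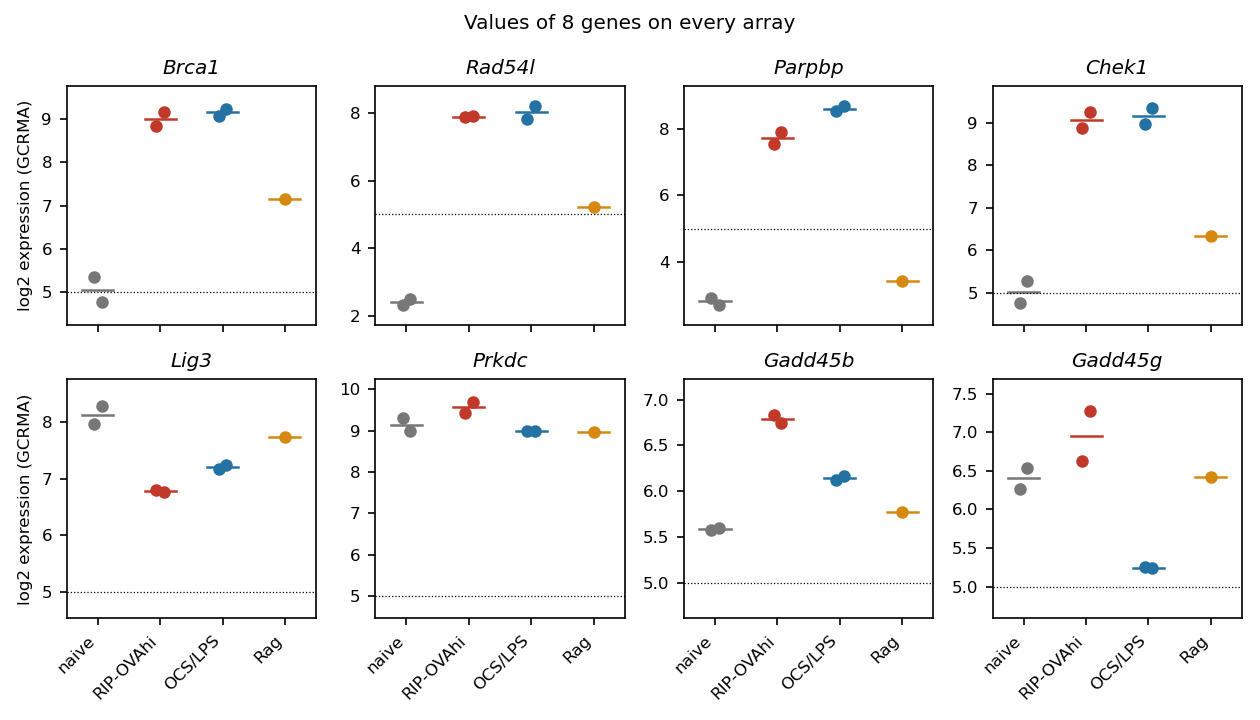
Log2 expression (GCRMA values, vertical axis, scaled separately for each gene) of 8 genes on every array by group; points are arrays, short lines group means and the dotted line log2 5. Brca1, Rad54l and Chek1 sit at an intermediate level in Rag, Parpbp stays near background there, and Gadd45g is lowest in OCS/LPS, at 5.25 and 5.24.

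The Fanconi anaemia pathway unhooks crosslinks between DNA strands and protects stalled forks. Of its 6 members with Rad18, RIP-OVAhi had 4 above naive and OCS/LPS had 6, with medians of 1.06 and 1.39, or 0.55 and 0.94 with the naive means of Fanca, Fancd2 and Fanci set to log2 5. Over all genes 18.1% were higher in RIP-OVAhi and 20.5% in OCS/LPS. Fanca, Fancd2, Fanci and Fancb were below log2 5 on a naive array, so part of these counts follows from the filter. Fancd2 and Fanci form the clamp that is ubiquitinated at the lesion. Fancd2 read 2.97 and 2.84 in naive cells, with RIP-OVAhi at 6.29 and 6.45, OCS/LPS at 6.72 and 7.51 and Rag at 4.04, and was higher than naive by 3.47 ± 0.26 in RIP-OVAhi (adjusted p = 0.000458) and by 4.21 ± 0.26 in OCS/LPS (adjusted p = 0.000188). Fanci read 2.97 and 3.12 in naive cells, with RIP-OVAhi at 5.53 and 5.55, OCS/LPS at 5.81 and 6.36 and Rag at 3.50, and the differences were 2.49 ± 0.20 (adjusted p = 0.000581) and 3.04 ± 0.20 (adjusted p = 0.000233). Both genes went from near background in naive cells to above log2 5 in RIP-OVAhi and OCS/LPS. Fanci stayed close to that level in RIP-OVAhi, at 5.53 and 5.55. Against a naive level of log2 5, Fanci rose at least 1.45-fold in RIP-OVAhi and at least 2.11-fold in OCS/LPS.

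Fanca, a subunit of the core complex that ubiquitinates the clamp, read 4.11 and 4.10 in naive cells, with RIP-OVAhi at 5.63 and 5.50, OCS/LPS at 5.76 and 6.18 and Rag at 4.40. It rose by 1.46 ± 0.17 in RIP-OVAhi (adjusted p = 0.00237) and by 1.87 ± 0.17 in OCS/LPS (adjusted p = 0.000779). Fancl, the ligase subunit of that complex, read 7.68 and 8.11 in naive cells, with RIP-OVAhi at 8.47 and 8.64, OCS/LPS at 8.61 and 8.69 and Rag at 7.63. Its differences of 0.67 ± 0.18 (adjusted p = 0.0358) and 0.76 ± 0.18 (adjusted p = 0.0221) were both lost without any single RIP-OVAhi or OCS/LPS array (adjusted p up to 0.202 and 0.132). Fancb, another core subunit, read 5.13 and 4.66 in naive cells, with RIP-OVAhi at 5.37 and 5.45, OCS/LPS at 5.77 and 5.74 and Rag at 4.26, the lowest array. It rose in OCS/LPS, by 0.86 ± 0.18 (adjusted p = 0.0155, lost without either OCS/LPS array), and differed by 0.51 ± 0.18 in RIP-OVAhi (adjusted p = 0.0814, or 0.00869 without naive replicate 1). Rad18, the ligase that marks PCNA at stalled forks, read 6.56 and 6.62 in naive cells, with RIP-OVAhi at 7.05 and 6.89, OCS/LPS at 7.37 and 7.63 and Rag at 6.56. It rose in OCS/LPS, by 0.91 ± 0.14 (adjusted p = 0.00604, or 0.0528 without OCS/LPS replicate 2), and differed by 0.38 ± 0.14 in RIP-OVAhi (adjusted p = 0.0957).

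Among break sensors and kinases, the effector kinases Chek1 and Chek2 rose and the apical kinases Atm and Atr did not pass the test. Of 8 members, RIP-OVAhi had 3 above naive and OCS/LPS had 4, with medians of 0.45 and 0.67. The shares of all genes above naive were 18.1% and 20.5%. Chek1, the kinase that restrains entry into mitosis when replication stalls, read 4.77 and 5.27 in naive cells, with RIP-OVAhi at 8.86 and 9.25, OCS/LPS at 8.96 and 9.33 and Rag at 6.34. RIP-OVAhi and OCS/LPS overlapped and stood far above naive, with Rag between. The difference was 4.03 ± 0.24 in RIP-OVAhi (adjusted p = 0.000189), 4.12 ± 0.24 in OCS/LPS (adjusted p = 0.000143) and 1.32 ± 0.29 in Rag (adjusted p = 0.0899). With the replicate number as a block the Rag difference was 1.53 and passed (adjusted p = 0.0157). Chek2, activated by Atm, read 5.28 and 5.43 in naive cells, with RIP-OVAhi at 6.76 and 6.65, OCS/LPS at 6.75 and 7.41 and Rag at 5.47. It rose by 1.35 ± 0.23 in RIP-OVAhi (adjusted p = 0.0087, up to 0.0781 without a RIP-OVAhi array) and by 1.72 ± 0.23 in OCS/LPS (adjusted p = 0.0035).

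Atm, which answers double-strand breaks, read 9.78 and 9.23 in naive cells, with RIP-OVAhi at 8.96 and 9.18, OCS/LPS at 8.89 and 9.14 and Rag at 9.68. Both dividing antigen-driven groups lay below both naive arrays, but the differences of -0.44 ± 0.22 (adjusted p = 0.186) and -0.49 ± 0.22 (adjusted p = 0.136) missed the threshold. They passed without naive replicate 2, at -0.71 (adjusted p = 0.0316) and -0.77 (adjusted p = 0.0235). Atr, which answers stalled forks, read 9.15 and 8.93 in naive cells, with RIP-OVAhi at 8.84 and 8.79, OCS/LPS at 8.73 and 8.84 and Rag at 8.70. Its differences were -0.23 ± 0.13 in RIP-OVAhi (adjusted p = 0.253), -0.26 ± 0.13 in OCS/LPS (adjusted p = 0.187, or 0.0472 without naive replicate 2) and -0.34 ± 0.16 in Rag (adjusted p = 0.34). Its other probe sets disagreed in size: in a limma fit of 16140 probe sets a second set was lower by 1.05 in RIP-OVAhi (a log2 difference of -1.05, adjusted p = 0.0204) and by 1.36 in OCS/LPS (-1.36, adjusted p = 0.00796). The remaining set gave -0.45 (adjusted p = 0.22) and -0.91 (adjusted p = 0.0355).

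Mre11a, Rad50 and Nbn form the complex that tethers broken ends and activates Atm. Mre11a, its nuclease, read 7.45 and 7.99 in naive cells, with RIP-OVAhi at 8.35 and 8.61, OCS/LPS at 8.74 and 8.78 and Rag at 7.52. It rose by 0.76 ± 0.21 in RIP-OVAhi (adjusted p = 0.0388) and by 1.04 ± 0.21 in OCS/LPS (adjusted p = 0.0132). The RIP-OVAhi call was lost without naive replicate 1 or any RIP-OVAhi or OCS/LPS array (adjusted p up to 0.219), and the OCS/LPS call without either OCS/LPS array (up to 0.0934). Rad50, the tether, read 8.0 and 7.63 in naive cells, with RIP-OVAhi at 7.98 and 8.24, OCS/LPS at 8.19 and 8.37 and Rag at 7.81, and its differences of 0.30 and 0.47 did not pass (adjusted p = 0.258 and 0.0957). Nbn, the adaptor for Atm, read 7.24 and 7.72 in naive cells, with RIP-OVAhi at 7.77 and 7.77, OCS/LPS at 7.85 and 8.13 and Rag at 6.87, with differences of 0.29 and 0.51 (adjusted p = 0.317 and 0.0966). In OCS/LPS, Rad50 passed without naive replicate 1 (0.65, adjusted p = 0.0354) and Nbn without naive replicate 2 (0.75, adjusted p = 0.0192). Topbp1, the activator of Atr, read 11.11 and 10.82 in naive cells, with RIP-OVAhi at 11.48 and 11.64, OCS/LPS at 11.62 and 11.98 and Rag at 11.28. It rose by 0.84 ± 0.18 in OCS/LPS (adjusted p = 0.0171, or 0.11 without OCS/LPS replicate 2). In RIP-OVAhi its difference of 0.60 ± 0.18 lay just outside the threshold (adjusted p = 0.0527, or 0.0392 without naive replicate 1).

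No end-joining gene passed the test in either antigen-driven group with low values filtered. Of 5 tested, 0 were called in RIP-OVAhi and 0 in OCS/LPS by limma, where 29.6% and 32.9% of all genes were called, with 1 and 0 at an unadjusted p under 0.05 and medians of 0.00 and -0.05. With so few genes a count of 0 is not far from those shares, and no contrast with the other repair routes was tested. Xrcc6 (Ku70), one subunit of the ring that caps broken ends, read 9.10 on both naive and both RIP-OVAhi arrays, 9.29 and 9.34 in OCS/LPS and 8.89 in Rag. Its partner Xrcc5 (Ku80) read 7.66 and 7.95 in naive cells, with RIP-OVAhi at 7.86 and 7.79, OCS/LPS at 8.02 and 8.41 and Rag at 7.48. Their differences from naive were 0.00 ± 0.11 and 0.02 ± 0.18 in RIP-OVAhi, and 0.22 ± 0.11 and 0.41 ± 0.18 in OCS/LPS (adjusted p = 0.184 and 0.136). With no filter on low values the Xrcc6 difference in OCS/LPS, 0.22, passed (adjusted p = 0.022).

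Prkdc, the catalytic subunit of DNA-PK that joins Ku at the break, read 9.31 and 8.98 in naive cells, with RIP-OVAhi at 9.43 and 9.70, OCS/LPS at 8.98 and 8.99 and Rag at 8.97. Its direction from naive was opposite in the 2 groups, 0.42 ± 0.16 in RIP-OVAhi (adjusted p = 0.11, or 0.0358 without naive replicate 1) and -0.16 ± 0.16 in OCS/LPS (adjusted p = 0.484). Xrcc4, the scaffold of the final ligation, read 8.57 and 9.30 in naive cells, with RIP-OVAhi at 8.58 and 8.28, OCS/LPS at 8.33 and 8.57 and Rag at 8.21, with differences of -0.50 ± 0.27 and -0.48 ± 0.27 (adjusted p = 0.207 and 0.214). Lig4, the ligase itself, read 5.90 and 6.74 in naive cells, with RIP-OVAhi at 6.12 and 6.22, OCS/LPS at 6.33 and 6.22 and Rag at 5.71, with differences of -0.15 ± 0.27 and -0.05 ± 0.27 (adjusted p = 0.711 and 0.908). The naive arrays of both genes were over 0.5 apart. Without naive replicate 1, Xrcc4 was lower in both groups (-0.87 and -0.85, adjusted p = 0.0253 and 0.0257), and so was Lig4 (-0.57 and -0.46, adjusted p = 0.0207 and 0.0325).

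Base excision repair removes single damaged bases and seals single-strand breaks, and its 4 members moved in no common direction. Lig3, the ligase that works with Xrcc1 in the nucleus and alone in mitochondria, was the only member called lower than naive in RIP-OVAhi. It read 7.97 and 8.29 in naive cells, with RIP-OVAhi at 6.81 and 6.76, OCS/LPS at 7.18 and 7.25 and Rag at 7.73. The groups did not overlap, with RIP-OVAhi lowest. The difference from naive was -1.34 ± 0.15 in RIP-OVAhi (2.54-fold lower, adjusted p = 0.00196) and -0.91 ± 0.15 in OCS/LPS (1.89-fold lower, adjusted p = 0.0066, or 0.0564 at most without an OCS/LPS array). In Rag it was -0.40 ± 0.18 (adjusted p = 0.318, or 0.04 without naive replicate 1). Xrcc1, the scaffold that holds Lig3, read 7.71 and 7.67 in naive cells, with RIP-OVAhi at 8.01 and 7.87, OCS/LPS at 7.82 and 7.95 and Rag at 7.29, and its differences of 0.25 and 0.19 did not pass (adjusted p = 0.189 and 0.274).

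Ung, the uracil glycosylase, read 9.29 and 9.29 in naive cells, with RIP-OVAhi at 9.79 and 9.80, OCS/LPS at 9.59 and 9.83 and Rag at 8.75. Both antigen-driven groups lay above naive and the Rag array below. The rise was 0.50 ± 0.13 in RIP-OVAhi (adjusted p = 0.0345), lost with the replicate block (adjusted p = 0.0518) and without any single RIP-OVAhi or OCS/LPS array (up to 0.166). In OCS/LPS the difference was 0.41 ± 0.13 (adjusted p = 0.0561) and in Rag -0.54 ± 0.16 (adjusted p = 0.16). Parp1, the sensor of single-strand breaks, read 10.33 and 10.50 in naive cells, with RIP-OVAhi at 10.22 and 10.32, OCS/LPS at 10.33 and 10.54 and Rag at 10.36, with differences of -0.14 and 0.02 (adjusted p = 0.483 and 0.916). Another Parp1 probe set gave 0.57 in RIP-OVAhi (adjusted p = 0.0739) and 0.88 in OCS/LPS (adjusted p = 0.0181), so the direction of Parp1 depends on the probe set.

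Of the mismatch repair pair, Msh6, which recognises mispaired bases, read 9.38 and 9.12 in naive cells, with RIP-OVAhi at 9.98 and 10.31, OCS/LPS at 9.96 and 10.31 and Rag at 9.79. It rose by 0.89 ± 0.19 in RIP-OVAhi (adjusted p = 0.0193) and by 0.88 ± 0.19 in OCS/LPS (adjusted p = 0.0181). The first call was lost without naive replicate 2 or either RIP-OVAhi array (adjusted p up to 0.134), and the second without OCS/LPS replicate 2 (0.119). Pms2, a subunit of the endonuclease that acts next, read 7.58 and 7.40 in naive cells, with RIP-OVAhi at 7.61 and 7.79, OCS/LPS at 7.59 and 7.97 and Rag at 7.40. Its differences of 0.21 and 0.29 did not pass (adjusted p = 0.401 and 0.242), and its second probe set gave -0.60 and -0.28 (adjusted p = 0.0906 and 0.354).

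Mdm2 is the ligase that degrades p53 and is itself a p53 target, and Trp53inp1 is a p53-induced stress protein. Mdm2 read 7.54 and 7.17 in naive cells, with RIP-OVAhi at 7.59 and 7.57, OCS/LPS at 7.54 and 7.70 and Rag at 7.70. Its differences were 0.23 ± 0.16 (adjusted p = 0.332) in RIP-OVAhi, 0.27 ± 0.16 (adjusted p = 0.252) in OCS/LPS and 0.35 ± 0.20 (adjusted p = 0.413) in Rag. Without naive replicate 1 the first pair passed, at 0.42 and 0.45 (adjusted p = 0.0485 and 0.0379), and a second probe set gave 0.68 (adjusted p = 0.0387) and 0.77 (adjusted p = 0.024). Trp53inp1 read 12.92 and 12.52 in naive cells, with RIP-OVAhi at 13.12 and 13.31, OCS/LPS at 13.12 and 13.12 and Rag at 13.40. Its differences were 0.50 ± 0.17 (adjusted p = 0.0734), 0.40 ± 0.17 (adjusted p = 0.117) and 0.68 ± 0.21 (adjusted p = 0.166). All 3 passed without naive replicate 1 (0.69, 0.60 and 0.88, adjusted p = 0.0156, 0.0211 and 0.0266).

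The Gadd45 proteins are small stress-induced proteins that bind p38 kinase activators, PCNA and cell cycle regulators, and in T cells the b and g forms are known for promoting cytokine production. Gadd45a stayed at 4.69 to 4.75 on every array, near background, and was not tested. Gadd45b read 5.58 and 5.60 in naive cells, with RIP-OVAhi at 6.83 and 6.74, OCS/LPS at 6.12 and 6.17 and Rag at 5.77. The 4 groups did not overlap. It rose by 1.20 ± 0.11 in RIP-OVAhi (2.29-fold, adjusted p = 0.00115) and by 0.56 ± 0.11 in OCS/LPS (1.47-fold, adjusted p = 0.0146, or 0.0959 at most without an OCS/LPS array), with 0.19 ± 0.14 in Rag (adjusted p = 0.541).

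Gadd45g read 6.26 and 6.54 in naive cells, with RIP-OVAhi at 6.62 and 7.27, OCS/LPS at 5.25 and 5.24 and Rag at 6.42. Both OCS/LPS arrays were the lowest and both RIP-OVAhi arrays the highest, though the RIP-OVAhi duplicates were 0.65 apart. Gadd45g lay close to log2 5 in OCS/LPS, so the size of its fall there is uncertain. Against naive it was lower in OCS/LPS, by a log2 difference of -1.15 ± 0.23 (2.22-fold lower, adjusted p = 0.014, or 0.0949 at most without an OCS/LPS array), and in RIP-OVAhi it differed by 0.55 ± 0.23 (adjusted p = 0.132). In Rag the difference was 0.02 ± 0.28 (adjusted p = 0.986).

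**Figure D3:**
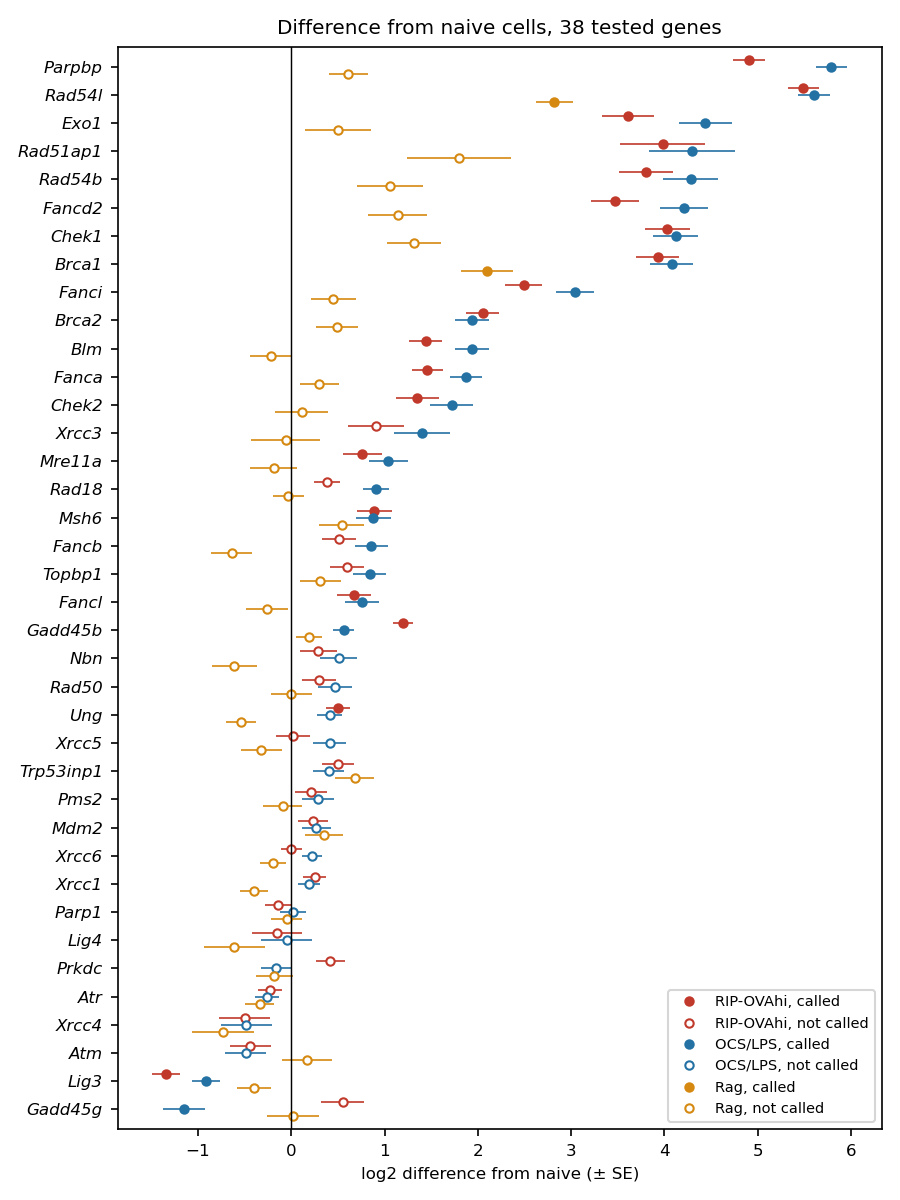
Log2 difference from naive (horizontal axis, ± SE) of the 38 tested genes (vertical axis, ordered by OCS/LPS) in RIP-OVAhi, OCS/LPS and Rag; filled points passed an adjusted p under 0.05 and open points did not. The RIP-OVAhi and OCS/LPS points lie close together for most genes, Gadd45g has them on opposite sides of 0 (0.55 and -1.15), and 2 Rag points are filled, Rad54l and Brca1.

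Tolerance and priming were then compared directly, the question that the RIP-OVAhi and OCS/LPS groups pose. Of the 38 repair genes 2 passed: Gadd45g and Gadd45b were higher in RIP-OVAhi and 0 of 38 were lower by limma, with 7 lower and 3 higher at an unadjusted p under 0.05. Over all genes 2.91% were called, 1.61% higher and 1.3% lower. Gadd45g was 1.70 ± 0.23 higher in RIP-OVAhi (3.25-fold, 95% interval 1.14 to 2.26, adjusted p = 0.0233). Its OCS/LPS arrays, at 5.25 and 5.24, lay close to log2 5, so the size of this difference is uncertain. Gadd45b was 0.64 ± 0.11 higher (1.56-fold, 95% interval 0.37 to 0.91, adjusted p = 0.0483). Both calls were lost without any single RIP-OVAhi or OCS/LPS array, with adjusted p up to 0.227 for Gadd45g and 0.346 for Gadd45b, and Gadd45b was also lost with the replicate block (adjusted p = 0.0911). The second Gadd45b probe set was higher by 1.04 ± 0.26 (adjusted p = 0.14). MHC class II, plasma cell and myeloid signals were also lower in RIP-OVAhi than in OCS/LPS, by the values given above.

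The other 36 genes did not pass. Their 95% intervals take the spread from all duplicated groups, so their width also reflects the naive arrays. More than 0.5 apart were 24.0% of all genes in naive duplicates, 3.34% in RIP-OVAhi and 4.56% in OCS/LPS. With only RIP-OVAhi and OCS/LPS in the fit, 5.07% of all genes and 2 members were called. In total 28 of the 38 read lower in RIP-OVAhi and 10 higher, with a median of -0.17 beside -0.05 over all genes. Both RIP-OVAhi arrays lay below both OCS/LPS arrays for 16 (42.1%, against 34.0% of all genes) and above for 4 (10.5%, against 23.5%). Parpbp had the largest negative difference, -0.88 ± 0.17 (95% interval -1.30 to -0.46, adjusted p = 0.0676), and passed when its probe sets were averaged (-0.90, adjusted p = 0.0281). Exo1 followed at -0.84 (interval -1.53 to -0.15, adjusted p = 0.226), Fancd2 at -0.74 (-1.38 to -0.10, adjusted p = 0.239), Fanci at -0.55 (-1.04 to -0.06, adjusted p = 0.254) and Blm at -0.50 (-0.94 to -0.06, adjusted p = 0.244). Rad18 gave -0.53 (-0.87 to -0.19, adjusted p = 0.15), and Lig3 gave -0.43 (-0.80 to -0.06, adjusted p = 0.231). Other tested Rad18 probe sets gave -0.97 and 0.20 in the limma fit of 16140 probe sets (adjusted p = 0.204 and 0.704). The direction of Rad18 here thus depends on the probe set.

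For the remaining recombination and checkpoint genes named here the intervals included 0. Xrcc3 differed by -0.49 (-1.23 to 0.25), Rad54b by -0.47 (-1.18 to 0.24), Chek2 by -0.37 (-0.93 to 0.19) and Rad51ap1 by -0.32 (-1.45 to 0.81). The Rad51ap1 interval includes the gap of its naive duplicates, -1.51, beside -0.08 in RIP-OVAhi and -0.22 in OCS/LPS (replicate 1 minus 2). Brca1 differed by -0.15 (interval -0.71 to 0.41), Brca2 by 0.11 (-0.33 to 0.55), Rad54l by -0.12 (-0.54 to 0.30) and Chek1 by -0.09 (-0.68 to 0.50). The apical kinases differed by 0.06 (Atm, -0.48 to 0.60) and 0.03 (Atr, -0.29 to 0.35). Prkdc was the gene next to the Gadd45 pair on the higher side, 0.58 ± 0.16 (0.19 to 0.97, adjusted p = 0.163), and its 2 RIP-OVAhi arrays lay above both OCS/LPS arrays.

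**Figure D4:**
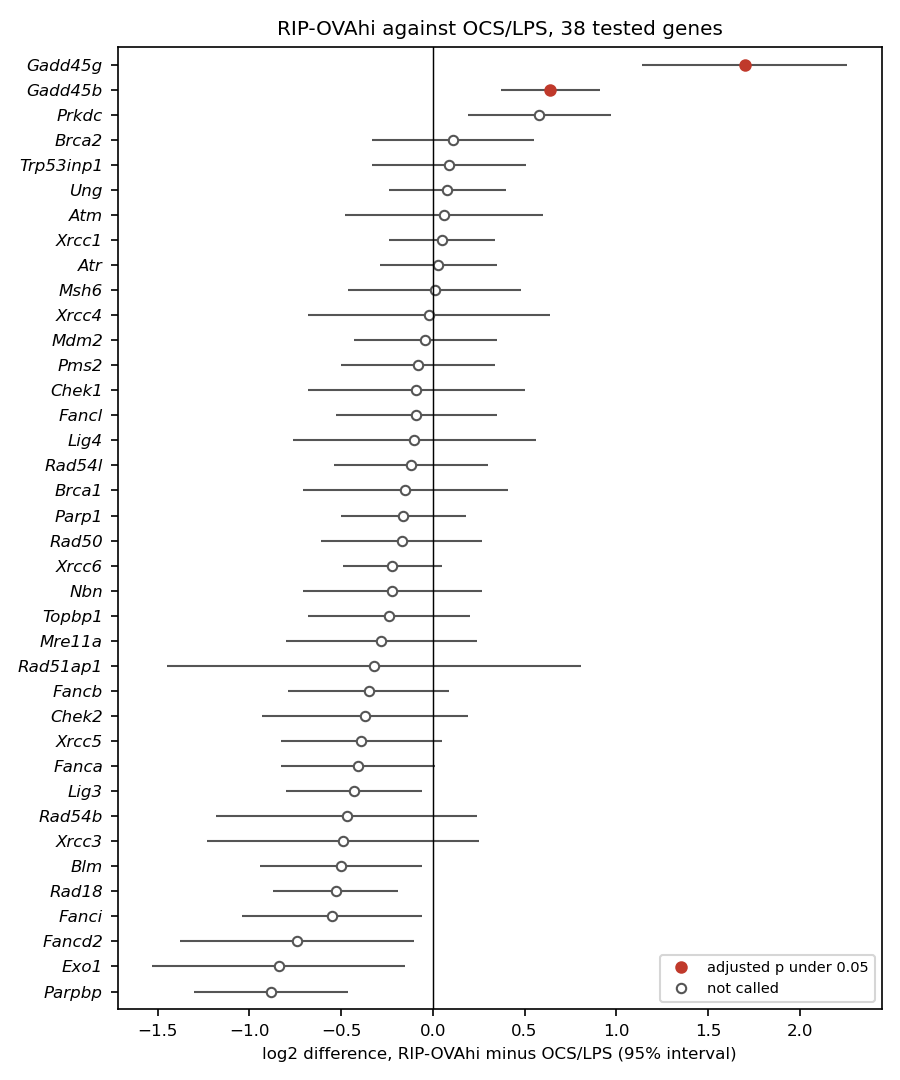
Log2 difference of RIP-OVAhi minus OCS/LPS (horizontal axis) with its 95% interval for the 38 tested genes (vertical axis); filled red points passed an adjusted p under 0.05. Gadd45g (1.70) and Gadd45b (0.64) are filled, and Parpbp (-0.88), Exo1 (-0.84) and Fancd2 (-0.74) have the lowest values.

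In cells dividing in Rag-/- hosts 2 of the 38 repair genes passed the test against naive, where 2.73% of all genes were called. Of the 26 tested cell cycle genes 11 were above naive there. Rad54l and Brca1 rose, Rad54l not on its other tested probe sets. Of the 38, 17 read above both naive arrays (44.7%, against 38.3% of all genes) and 14 below both (36.8%, against 29.3%). Fancd2 (1.14 ± 0.32, adjusted p = 0.149), Rad54b (1.06 ± 0.35, adjusted p = 0.199) and Exo1 (0.50 ± 0.35, adjusted p = 0.504) had positive differences that did not pass. Fancb (-0.64 ± 0.22, adjusted p = 0.216), Nbn (-0.61 ± 0.24, adjusted p = 0.267), Lig4 (-0.61 ± 0.33, adjusted p = 0.402) and Xrcc4 (-0.73 ± 0.33, adjusted p = 0.316) had negative ones. Leaving out naive replicate 1 raised the number called from 2 to 8 of 38, in a fit that called 19.8% of all genes, a share close to that of the members. Leaving out naive replicate 2 raised it to 4, with 3.45% of all genes called. The Rag array also had the highest summed levels of the MHC class II, myeloid and erythroid lists.

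Both antigen-driven groups were then set against the single Rag array. In RIP-OVAhi 18 were higher and 1 lower, with a median of 0.91 (0.02 over all genes), where 16.7% of all genes were called, 9.84% higher and 6.9% lower. In OCS/LPS 21 were higher and 1 lower, with a median of 0.95 (0.06), where 18.1% were called, 11.2% higher and 6.9% lower. Both RIP-OVAhi arrays lay above the Rag array for 33 of the 38 (86.8%, against 46.2% of all genes) and below for 5 (13.2%, against 39.8%), and both OCS/LPS arrays lay above it for 32 (84.2%, against 48.9%) and below for 5 (13.2%, against 38.3%). These counts include genes that passed the filter only through the groups where they were high. Of the 27 genes at log2 5 or more on both naive arrays, 8 were higher and 1 lower in RIP-OVAhi (median 0.41), where 7.47% and 7.03% of the 7742 such genes were. In OCS/LPS 10 were higher and 1 lower (median 0.47), where 8.83% and 7.21% were. Parpbp differed by 4.30 ± 0.21 in RIP-OVAhi (adjusted p = 0.000373) and 5.18 ± 0.21 in OCS/LPS (adjusted p = 0.000211), with the Rag array near background. Brca1 was higher by 1.83 ± 0.28 (adjusted p = 0.0105) and 1.99 ± 0.28 (adjusted p = 0.00841), and Chek1 by 2.72 ± 0.29 (adjusted p = 0.00361) and 2.81 ± 0.29 (adjusted p = 0.00314). Ung stood 1.04 ± 0.16 above Rag in RIP-OVAhi (adjusted p = 0.0105) and 0.96 ± 0.16 in OCS/LPS (adjusted p = 0.0137). The genes called lower than in Rag were Lig3 in RIP-OVAhi (-0.95 ± 0.18, adjusted p = 0.0206) and Gadd45g in OCS/LPS (-1.17 ± 0.28, adjusted p = 0.0402).

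These comparisons rest on 1 Rag array, whose spread was taken from the other groups. With only the 2 groups compared in the fit, 0 members passed in any comparison with Rag. Without RIP-OVAhi replicate 1 or 2, the number called against Rag fell from 19 to 7 or 6 in RIP-OVAhi and from 22 to 13 in OCS/LPS. Without OCS/LPS replicate 1 or 2, the OCS/LPS number fell to 12 or 10. In every such fit that left out 1 array of a duplicated group, 6 of the 19 and 9 of the 22 remained called.

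Repair and p53 pathway genes outside the list were 164 by name and 120 tested. In RIP-OVAhi 32 were higher than naive and 10 lower (median 0.22), and in OCS/LPS 38 were higher and 12 lower (median 0.27). Over all genes 18.1% were higher and 11.6% lower in RIP-OVAhi, and 20.5% and 12.3% in OCS/LPS. The counts of each list below are to be read beside these shares. In Rag 3 were higher and 0 lower by limma (19 at an unadjusted p under 0.05), namely Clspn, Cdc25b and Lig1. Of all genes 2.15% were higher and 0.585% lower there, so the count is near that share. Between RIP-OVAhi and OCS/LPS 1 differed, Cdc25c, a phosphatase that starts mitosis, lower in RIP-OVAhi by a log2 difference of -1.22 ± 0.21 (adjusted p = 0.0462). In that comparison 2.91% of all genes were called.

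Of the other recombination genes 6 of 15 rose from naive in RIP-OVAhi and 7 of 15 did so under priming, while 0 were lower in either. Eme1, part of a nuclease that cuts joined duplexes, rose by 3.84 ± 0.27 in RIP-OVAhi (adjusted p = 0.000337), Brip1, a helicase partner of Brca1, by 2.76 ± 0.30 (adjusted p = 0.00192), and Gen1, a resolvase, by 2.43 ± 0.27 (adjusted p = 0.00215). The naive means of Eme1, Brip1 and Gen1 were 2.3, 2.7 and 3.48, near background. The sizes of their rises were therefore not measured, and part of the count follows from the filter. Of 18 other Fanconi and post-replication genes 3 were higher and 2 lower in RIP-OVAhi, and 7 higher and 2 lower in OCS/LPS. Polh, a polymerase that copies past ultraviolet damage, was higher by 1.43 ± 0.14 in RIP-OVAhi (adjusted p = 0.00131), Fancg, a core complex subunit, was higher by 1.23 ± 0.32 (adjusted p = 0.034), and Rev1, another bypass polymerase, was lower (-0.97 ± 0.25, adjusted p = 0.0344). The naive mean of Fancg, 4.66, was also near background. Among 6 other end-joining genes and 3 other mismatch genes, 0 passed by limma in either group (2 and 1 at an unadjusted p under 0.05 in RIP-OVAhi, 1 and 0 in OCS/LPS).

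Nucleotide excision repair, which cuts out bulky lesions, had 3 of 21 higher and 1 lower in RIP-OVAhi, and 5 higher and 4 lower in OCS/LPS. Rpa2, a subunit of the single-strand binding complex, rose by 1.09 ± 0.12 in RIP-OVAhi (adjusted p = 0.00196), Ddb1, a damage-recognition subunit, rose by 0.59 ± 0.13 (adjusted p = 0.019), and Uvssa, which acts at stalled RNA polymerase, fell (-1.01 ± 0.21, adjusted p = 0.0156). Of 16 other base excision genes 6 were higher and 2 lower in RIP-OVAhi, and 7 and 2 in OCS/LPS. Lig1, the replicative ligase, rose by 3.41 ± 0.12 in RIP-OVAhi (adjusted p = 4.31e-05), opposite in direction to Lig3. Neil3, a glycosylase, rose by 2.79 ± 0.20 (adjusted p = 0.000408), and Tdp1, which frees trapped topoisomerase from DNA, by 1.84 ± 0.19 (adjusted p = 0.00153). The naive mean of Neil3, 4.8, was near background.

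Among 22 other checkpoint genes 9 were higher and 2 lower in RIP-OVAhi, and 9 and 1 in OCS/LPS. Clspn, the adaptor that lets Atr activate Chek1, rose by 4.13 ± 0.28 in RIP-OVAhi (adjusted p = 0.000319), Cdc25c by 3.03 ± 0.21 (adjusted p = 0.000364), and Wee1, the kinase that opposes it, by 2.19 ± 0.22 (adjusted p = 0.00139). The naive means of Clspn and Cdc25c were 3.74 and 3.13, near background, so the sizes of their rises were not measured. The 16 tested p53 target genes split, 5 higher and 3 lower in RIP-OVAhi and 3 higher and 2 lower in OCS/LPS. Among those higher in RIP-OVAhi were Ckap2 (4.75 ± 0.38, adjusted p = 0.000594) and Gtse1 (2.32 ± 0.42, adjusted p = 0.0106), both known also as mitotic spindle proteins. Their naive means were 3.5 and 3.19, near background, so the sizes of these rises were not measured either. Bbc3, which encodes the pro-apoptotic protein Puma, was lower in RIP-OVAhi by a log2 difference of -2.00 ± 0.15 (adjusted p = 0.000469). Of 3 tested stress genes often induced with Gadd45, 0 passed in RIP-OVAhi by limma (2 at an unadjusted p under 0.05), and Ddit3, a transcription factor of the stress response, was lower in OCS/LPS (-1.00 ± 0.20, adjusted p = 0.0131).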

How the data were processed

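Expression was measured on 7 Affymetrix arrays. The deposited table gives log2 expression for 45101 probe sets, and the submitters' processing notes name GCRMA, with no version in the sources used here. GCRMA usually includes quantile normalization, after which a shift shared by most genes cannot be seen. The values were used as deposited, and array medians lay between 2.97 and 3.08. Arrays have no read depth, and their number limits the precision.

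Of the probe sets, 34958 had 1 gene symbol, 932 several and 9211 none in the platform annotation, and only the first were named. All arrays entered 1 model with a mean per group (limma 3.58.1, R 4.3.3, lmFit and eBayes; 3 residual and 2.93 prior degrees of freedom, prior SD 0.156). P-values were two-sided and Benjamini-Hochberg adjusted over 8203 genes in each of 6 comparisons, and called under 0.05. SE is the moderated standard error and 95% intervals are unadjusted. The script was tested on simulated data.

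Nothing in the labels ties the 2 pools of a group to separate experiments, and p-values therefore reflect only array-to-array spread, some of which may be technical. Same-numbered arrays deviated together from their group means (correlations over 8203 genes of 0.348 for naive and RIP-OVAhi, 0.132 for naive and OCS/LPS, 0.325 for RIP-OVAhi and OCS/LPS), so the replicate number was fitted as a block as an alternative, and its values are given where it changed a call.

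The members, gene lists and tests were chosen with earlier results of these data known. Members were described in full where called between RIP-OVAhi and OCS/LPS, among the 6 largest called rises or falls from naive, or differing in direction between groups, together with Brca1, Atm, Atr, Chek1, Mdm2 and the Gadd45 genes. Other repair lists name up to 3 called genes with the largest difference in RIP-OVAhi against naive and in RIP-OVAhi against OCS/LPS. Alternatives changed the filter, centring, probe set, variance prior, block, groups in the fit, fold requirement and arrays. Centring on the tested genes, leaving out the Rag array and setting naive means below log2 5 on both arrays to 5 were chosen after seeing the data. The neutrophil, NK cell and stroma lists summed to 5.01 to 6.64, 10.09 to 11.20 and 5.56 to 6.15 over the arrays, and the B cell list to 7.28 to 9.69. The NK cell sum came almost wholly from Eomes (10.09 to 11.20). The other NK cell gene on the array, Ncr1, read 2.26 to 2.31, near background.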

Additional observations from a re-analysis of the deposited data

How the results depend on the processing

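Of 3456 values of single members under the alternatives, 3155 kept their direction and side of the threshold, 230 lost a call (124 without 1 array), 70 gained one (43) and 1 reversed: Pms2 in RIP-OVAhi against Rag went from 0.31 to -1.30 (adjusted p = 0.0256) with its probe set of the largest range. The cause was not tested. With a gene's probe sets averaged, 30 members passed the filter, where 38 did in the main analysis. The members called were then 11 in RIP-OVAhi against naive (19 in the main analysis), 1 in Rag against naive (2), 11 in RIP-OVAhi against Rag (19) and 14 in OCS/LPS against Rag (22). With no filter they were 1 in Rag against naive, 1 in RIP-OVAhi against OCS/LPS (2) and 11 in RIP-OVAhi against Rag; more genes are then tested. In RIP-OVAhi against OCS/LPS, 1 was called with arrays centred on their medians, the probe set of largest range, a mean-variance trend, the replicate block or at least 2-fold. With only the groups compared, 0 passed in Rag against naive, RIP-OVAhi against Rag and OCS/LPS against Rag, where fewer arrays give the spread. Leaving out 1 array gave 14 to 25 in RIP-OVAhi against naive, 13 to 28 in OCS/LPS against naive (23; 13 without OCS/LPS replicate 2), 1 to 8 in Rag against naive, 0 to 2 in RIP-OVAhi against OCS/LPS, 6 to 23 in RIP-OVAhi against Rag and 10 to 27 in OCS/LPS against Rag. In every such fit 14 of 19, 13 of 23, 1 of 2 and 0 of 2 stayed called in the first 4 comparisons.

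Centring arrays on the tested genes moved the median of all genes from 0.06 to -0.06 in RIP-OVAhi against naive and from 0.08 to -0.07 in OCS/LPS against naive, and the share of calls that were higher from 61.0% to 47.9% and from 62.5% to 47.8% (78.6% to 68.4% in Rag against naive). Fancl, Mre11a and Ung then lost their RIP-OVAhi calls (adjusted p = 0.0517, 0.0505 and 0.0704). Beside the changes given in the text, the replicate block lost Rad51ap1, Fancl, Chek2 and Xrcc1 in RIP-OVAhi against Rag (adjusted p = 0.0586, 0.0544, 0.0571 and 0.0811) and Xrcc1 in OCS/LPS against Rag (0.0951), and changed no other call. Gadd45g between RIP-OVAhi and OCS/LPS was lost with no filter (adjusted p = 0.137).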

Other observations

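The duplicate arrays of the 38 tested repair genes were closest in RIP-OVAhi. There 2 genes were more than 0.5 apart on the log2 scale, with a median gap of 0.16 (0.12 over all tested genes), and the widest was Gadd45g at 0.65. In OCS/LPS 6 were, with a median gap of 0.23 (0.12 over all genes), and the widest was Fancd2 at 0.79. In naive 7 were, with a median of 0.29 (0.27 over all genes), and the widest was Rad51ap1 at 1.51. Over all tested genes, the share more than 0.5 apart was 3.34% for RIP-OVAhi arrays, 4.56% for OCS/LPS arrays and 24.0% for naive arrays.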
